A study of Danio rerio with 2 samples.

Results

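The genes described here copy DNA and repair it in whole zebrafish larvae, and were chosen by name: every row of the deposited table whose gene symbol begins with a name of the replication machinery or of a repair or checkpoint family (mcm, orc, rfc, rpa, gins, pcna, cdc45, rad, fanc, xrcc, msh, mlh, ercc, xpa, xpc, brca, atm, atr, chek, lig1, lig3, lig4, parp, ddb1, ddb2, mre11, nbn and tp53bp). The rule found 128 of 33733 rows, carrying 121 different symbols. By function, 33 rows belong to replication and 71 to repair and checkpoint pathways, and 24 share the name pattern without acting in one of these pathways as grouped here. The 2 groups compared were homozygous lri25 mutants and wild-type larvae from the same clutches, both of the AB/TL strain at 5 days post fertilisation, each sampled as 1 library from a pool of 20 whole larvae. The mutant sample's title spells the allele lir25, whereas the series text uses lri25. The gene that lri25 affects is not named in the sources used here, so no transcript could be used to check the genotype labels.

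A cell that copies its genome first marks origins with the origin recognition complex (ORC), which loads the ring-shaped MCM2-7 helicase. CDC45 and the GINS complex then activate that helicase, RPA coats the single strands, and the clamp loader RFC places the sliding clamp PCNA that holds the polymerases on the template. Repair runs in parallel pathways: nucleotide excision removes bulky lesions, mismatch repair corrects copying errors, PARP enzymes and XRCC1 handle single-strand breaks, and end joining or homologous recombination mends double-strand breaks. The Fanconi anaemia proteins resolve crosslinks, and the kinases ATM and ATR signal damage through CHEK1 and CHEK2. In a larva of this age, replication transcripts come mainly from tissues that still divide, such as the retinal margin, gut, skin and blood-forming tissue, whereas most repair genes are expressed broadly at low levels.

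Levels are FPKM, fragments on a gene scaled to transcript length and library size. The difference between the libraries is log2((mutant FPKM + 1)/(wild-type FPKM + 1)), a scale that compresses differences near 0, and folds beside single genes are plain ratios of FPKM. Only genes reaching 1 FPKM in either library were compared, and a gene is called higher or lower in the mutant when the log2 difference reaches 1 in size, a 2-fold difference. With 1 library per genotype there was no replicate check and no test was run, and each value describes these pools. In pools of whole larvae, fewer cells of a type and less RNA per cell cannot be told apart. Markers of the tissues of a whole larva were present, with 17 of 18 rows matched to 16 marker symbols at 1 FPKM or more. In the mutant library rhodopsin (rho) of rods was 38.6-fold lower, trypsin (try) of the exocrine pancreas 3.12-fold lower and fabp2 of gut 2.05-fold lower, whereas the neutrophil gene mpx was 2.46-fold higher. The part of such tissue differences in the values below was not tested. The depth of the libraries is unknown, and low values gave only a hint of it. Of 510 genes above 0 but under 0.5 FPKM in both, 206 had mutant values at 0.7 to 0.83 of the wild type. Their median was 0.765, as 1 fragment per library would give with a mutant library 1.31 times deeper. That median was taken within the 0.7 to 0.83 window alone, so it depends on the window and is no measure of depth.

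Replication and repair transcripts lay close together in the 2 libraries. Of the 128 rows, 113 entered the comparison; 5 were called higher in the mutant, 1 was called lower and 107 were within 2-fold. Among all 20256 genes entering, 6.08% were called higher, 7.12% lower and 13.2% in either direction. The shares were 4.42%, 0.885% and 5.31% of the 113 rows found by the rule. Among the 92 of these placed in the pathways, 3 were called higher and 1 lower. The 113 rows had a median log2 difference of 0.10, with quartiles of -0.13 and 0.31. Over all genes the median was -0.01, with quartiles of -0.37 and 0.33. The mutant value was the higher one for 70 of the 113, or 61.9%, against 49% of all genes. A row under 1 FPKM in 1 library entered through the other alone, which favours that other library, here as among all genes. The mutant FPKM was between 0.8 and 1.25 times the wild-type FPKM for 55 of the 113 (48.7%) and for 39.7% of all genes entering. The Pearson r between the libraries on the log2(FPKM + 1) scale, computed across genes of 1 pair of libraries, was 0.930 for these 113 and 0.913 for all 20256.

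The 6 genes past 2-fold were the poly(ADP-ribose) polymerase gene parp3, PARP4, PARP12 (2 of 2), the checkpoint kinase atr and the origin gene orc4, all higher in the mutant, and the recombination gene rad52, which was lower. Of these, parp3, PARP4 and orc4 reached 5 FPKM in at least 1 library; atr, PARP12 (2 of 2) and rad52 stayed under 5 FPKM in both. With a pseudocount of 5 FPKM in place of 1, parp3 alone was past 2-fold. Just short of the limit were gins4 at -0.90, ercc8 at 0.88, rad51ap1 at 0.84 and atm (ENSDARG00000063465) at 0.79 on the log2 difference scale.

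**Figure D1:**
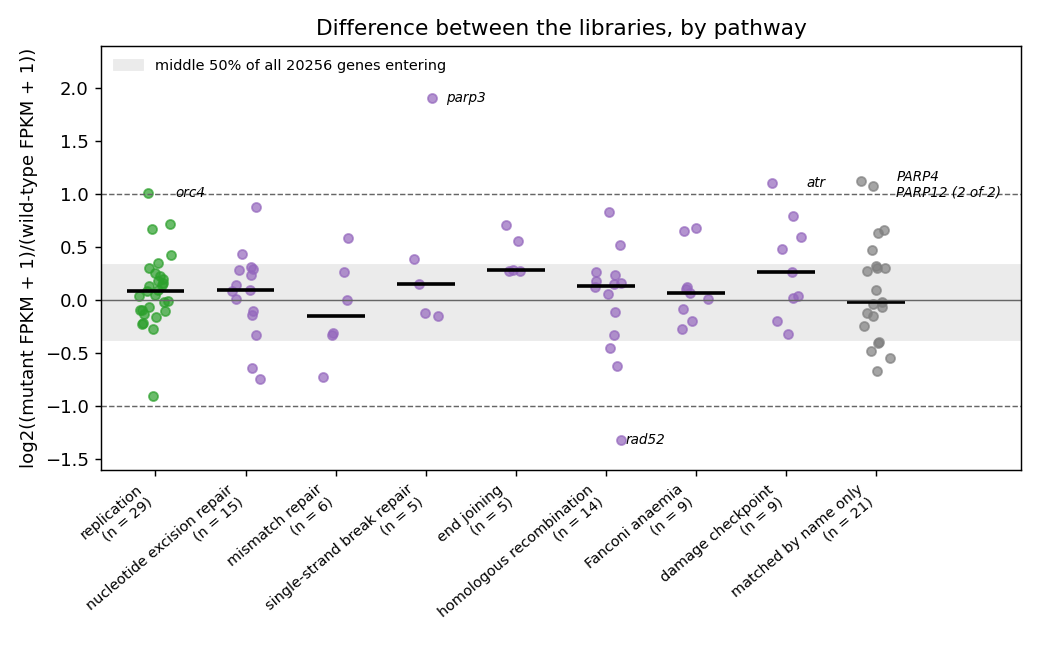
Each point is 1 gene that entered the comparison, placed by its log2 difference between the mutant and wild-type libraries; black bars are pathway medians, dashed lines mark a 2-fold difference and the grey band holds the middle 50% of all 20256 genes entering. Pathway medians lie between -0.15 and 0.28, and the labelled genes are the 6 past 2-fold.

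The origin recognition complex had 6 of 6 subunits with a mutant value above the wild type, against 49% of all genes, and a median log2 difference of 0.29. Of these, orc4 alone was called higher, and orc1, orc5 and orc6 lay within the quartiles of all genes, -0.37 and 0.33. The gene orc4 (ENSDARG00000029014, build Zv9, chromosome 6, 1422821 to 1436521) stood at 7.27 FPKM in wild-type and at 15.7 FPKM in mutant larvae, 2.16-fold higher, and orc3 was at 5.36 and 9.49 FPKM. These were the ORC subunits with the highest mutant levels. The other subunits stood nearer to each other: ORC2 at 2.11 and 2.96 FPKM, orc5 at 5.36 and 6.46 FPKM, and orc1, the subunit that binds ATP to load MCM rings, at 3.67 and 4.22 FPKM. The smallest subunit gene orc6, whose locus is shared with 4 other rows of the table and whose level is therefore less certain, was at 3.56 and 4.05 FPKM. Summed over the 6 subunits, ORC transcripts came to 27.3 FPKM in wild-type and 42.9 FPKM in mutant larvae, a gap that lay mostly in orc4 and orc3.

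The helicase that ORC loads did not show the same pattern. Of its 10 rows, 7 entered, with 3 above 0 and 4 below, a median of -0.10 and differences between -0.27 and 0.26. The gene mcm7, whose locus also holds the microRNA genes dre-mir-19d, dre-mir-25 and dre-mir-93, had the highest level, at 27.0 and 24.6 FPKM. The subunits mcm4, at 17.3 and 18.6 FPKM, and mcm6, at 11.9 and 14.4 FPKM, were slightly higher in the mutant, and mcm5 (ENSDARG00000019507) was slightly lower, at 18.5 and 15.7 FPKM. The symbol mcm3 has 2 rows, one at 3.33 and 3.60 FPKM on chromosome 20 (a shared locus) and the other at 3.04 and 2.77 FPKM on chromosome 16. A second row named mcm5 (ENSDARG00000029688), at 1.73 and 1.26 FPKM, carries an identifier that the gene name table pairs with hsp70.1. It shares its locus with hsp70.2 and hsp70.3, so it may not report an MCM subunit. This doubtful row is 1 of the 4 below 0, enters the median and sets the lowest difference, -0.27. The next lowest was mcm5 (ENSDARG00000019507), at -0.22. The related mcm6l was under 1 FPKM in both libraries, at 0.673 and 0.237 FPKM.

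The row for mcm2 was listed at 0 in both libraries, although the other subunits of the same ring were present. Its locus lies on an unplaced scaffold of Zv9, as do those of the 3 rows for the crosslink repair helicase FANCM, which were also listed at 0. All 1225 rows of the table on unplaced scaffolds were listed at 0 in both libraries, against 27.9% of rows on chromosomes, so these 4 zeros cannot be read as expression levels.

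Helicase activators differed among themselves. The GINS subunits form a ring of 4 proteins, and gins4 was 2.03-fold lower in the mutant, at 10.5 and 5.18 FPKM, whereas gins2 was 1.69-fold higher, at 5.57 and 9.44 FPKM. Between them lay gins1, at 5.24 and 4.38 FPKM, and gins3, at a shared locus, at 3.92 and 3.40 FPKM. The partner cdc45, at a locus shared with 6 other rows, was at 2.05 and 2.50 FPKM, and mcm10, which stabilises the replisome, was under 1 FPKM in both libraries, at 0.739 and 0.950 FPKM.

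The clamp and its loader had nearly equal levels. The sliding clamp gene pcna (ENSDARG00000054155, chromosome 10, 42187909 to 42192762) was the most abundant of the 128 rows, at 142 and 176 FPKM. The large loader subunit gene rfc1 was at 5.23 and 5.18 FPKM, rfc3 at 13.5 and 14.0 FPKM, rfc5 at 24.2 and 22.7 FPKM and rfc2 at 8.05 and 9.24 FPKM. A pair of rows exists for the fourth loader subunit, rfc4 at 15.0 and 14.7 FPKM and RFC4 (2 of 2), at a locus shared with 15 other rows, at 18.6 and 17.8 FPKM. The 6 loader rows had log2 differences between -0.09 and 0.18. All 3 RPA subunit genes were slightly higher in the mutant: rpa1 at 26.2 and 28.8 FPKM, rpa2 at 20.1 and 20.6 FPKM and rpa3 at 21.4 and 29.1 FPKM. LIG1, the ligase that joins Okazaki fragments, was at 8.16 and 7.57 FPKM. Over all 29 replication rows that entered, 1 was called higher and 0 lower, beside 6.08% and 7.12% of all genes. The replication median was 0.09, with quartiles of -0.10 and 0.23.

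**Figure D2:**
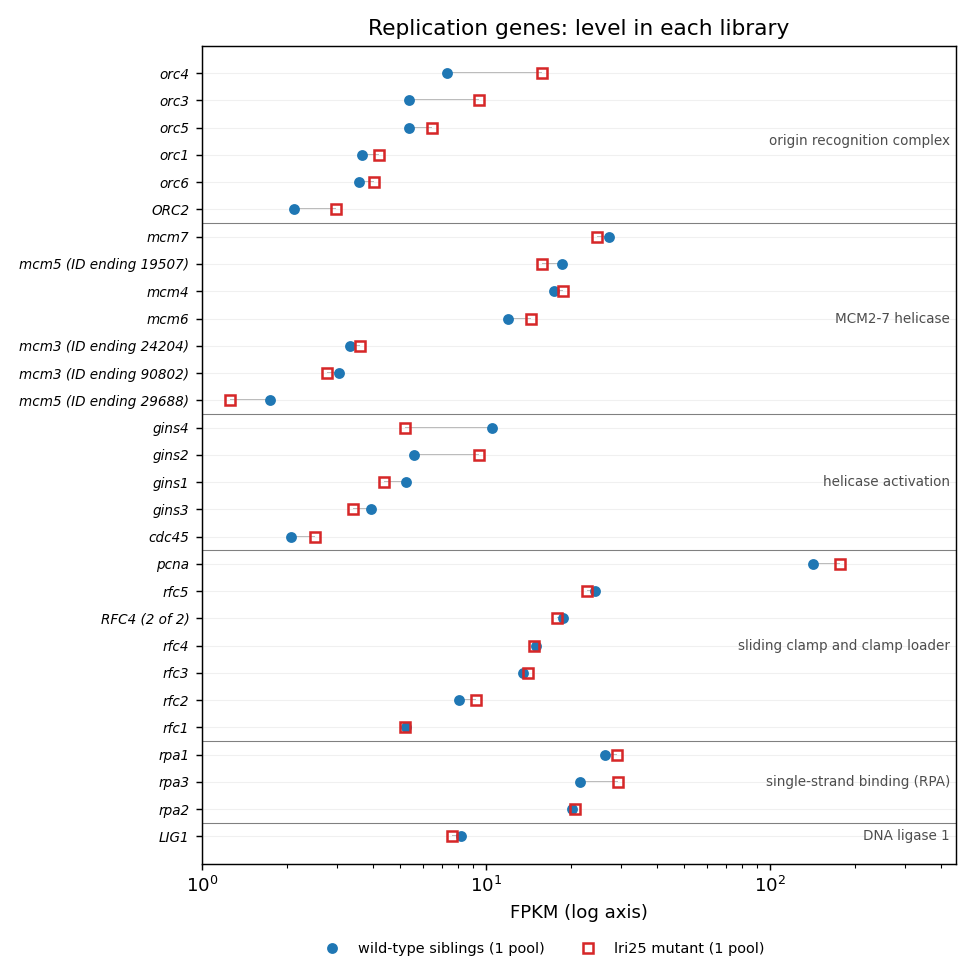
FPKM of each replication gene (log axis) in the wild-type pool (filled circles) and the mutant pool (open squares), 1 library each, grouped by role; rows sharing a symbol are told apart by the end of their identifier. The squares of all 6 ORC genes lie right of the circles, MCM and RFC pairs lie close together, and gins4 and gins2 separate in opposite directions.

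Nucleotide excision repair, which removes ultraviolet lesions and other bulky damage, had a median log2 difference of 0.10 over 15 rows, with quartiles of -0.12 and 0.29. Of the 15, 0 were called in either direction, beside 13.2% of all genes. The recognition factors were the most abundant. The ubiquitin receptor and XPC partner rad23b was at 59.3 and 72.4 FPKM, and its paralog rad23aa at 12.1 and 13.4 FPKM. Both rows of the damaged-DNA-binding adaptor ddb1 were slightly higher, at 15.2 and 16.2 FPKM (ENSDARG00000074431) and at 16.1 and 19.2 FPKM (ENSDARG00000089106). Its lesion-binding partner ddb2 (ENSDARG00000041140, chromosome 18, 20248868 to 20260045) was instead lower, at 14.3 and 8.11 FPKM, a 1.76-fold difference and the lowest of the pathway. The recognition factor xpc was at 7.74 and 7.11 FPKM.

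Transcription-coupled repair starts at stalled RNA polymerase with the Cockayne syndrome proteins, and their genes differed in opposite directions. ERCC8 belongs to the ubiquitin ligase that the stalled polymerase recruits, and ercc8 was at 5.30 and 10.6 FPKM, the highest difference of the pathway at 0.88. The remodelling ATPase gene ercc6 was at 7.60 and 4.51 FPKM, a difference of -0.64. The helicases of TFIIH that open the DNA were ercc3, at 8.11 and 11.4 FPKM at a shared locus, and ercc2, at 6.84 and 6.12 FPKM. The verifying factor xpa was at 1.78 and 2.46 FPKM, and the incision nucleases were ercc1 at 9.14 and 11.5 FPKM, ercc4 at 2.62 and 2.65 FPKM and ercc5 at 2.42 and 1.72 FPKM. None of the incision genes was past 2-fold.

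Mismatch repair had the lowest pathway median, at -0.15 over 6 rows, but this value rested on genes near 2 FPKM and changed sign with the floor. The mismatch recognition gene msh6, whose locus is shared, had 5.61 and 5.63 FPKM. The MutL gene mlh3, which acts after recognition, was at 2.26 and 2.93 FPKM. Of the 2 rows named msh3, which recognises larger loops, one was at 1.33 and 0.408 FPKM and the other (ENSDARG00000063276) was listed at 0 in wild-type larvae, with 0.343 FPKM in mutants. The meiotic genes msh4, at 2.78 and 2.01 FPKM, and MSH5, listed at 0 and at 0.274 FPKM, belong to the same family. With a floor of 5 FPKM, the median was 0.30.

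Single-strand break repair, as grouped here, held the gene with the largest difference of all 128 rows. The gene parp3 (ENSDARG00000003961, chromosome 6, 41969222 to 41980214, alone at its locus) had 6.24 FPKM in wild-type and 26.1 FPKM in mutant larvae, a 4.19-fold difference. Among all 20256 genes it ranked 240 from the highest difference. PARP3 is an ADP-ribosyltransferase activated by DNA breaks, known in human cells for aiding end joining. Its better known relatives did not differ to this extent: parp1 had 12.4 and 11.3 FPKM and parp2 had 6.53 and 8.88 FPKM, both with loci shared with other rows. The scaffold gene xrcc1, at 8.33 and 7.41 FPKM, and the ligase gene lig3, at 8.50 and 9.55 FPKM, were within 1.12-fold.

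End joining genes as grouped here, without parp3, were all higher in the mutant by less than 2-fold. Above 0 were 5 of 5 rows, 2 of them for xrcc5, against 49% of all genes. The lig4 row and both xrcc5 rows lay within the quartiles of all genes, -0.37 and 0.33. The pathway median was 0.28. This median moved with the settings, to 0.13 at pseudocount 5, 0.42 at pseudocount 0.1 and 0.64 with a floor of 5 FPKM, which left 2 rows. The Ku heterodimer that caps broken ends is encoded by xrcc6, at 2.74 and 5.12 FPKM, and by xrcc5, whose 2 rows were at 1.56 and 2.12 FPKM (ENSDARG00000015599) and at 2.05 and 2.71 FPKM (ENSDARG00000068862). The ligation step was represented by xrcc4, at 3.17 and 5.15 FPKM, and lig4, at 1.83 and 2.43 FPKM. Summed over the 5 rows, the level was 11.4 FPKM in wild-type and 17.5 FPKM in mutant larvae.

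Homologous recombination had genes on both sides, with 9 of 14 above 0, against 49% of all genes. Of these 14, brca2 entered through the mutant library alone, and mcm9, rad52 and rad54b through the wild-type library alone. The pathway median was 0.14, and -0.20 with a floor of 5 FPKM. The gene rad52 (ENSDARG00000005274, chromosome 25, 21769145 to 21827148, a locus shared with the kinase gene wnk1a) was the one called lower, at 3.32 and 0.731 FPKM, a 4.54-fold difference between low values. The gene rad51ap1, which stimulates strand invasion, was at 1.66 and 3.75 FPKM, a 2.26-fold ratio that fell short of the limit on the log2(FPKM + 1) scale. Among genes that assist strand exchange, rad51c was at 2.54 and 1.30 FPKM (a shared locus), whereas rad51b was at 1.70 and 2.06 FPKM, rad51d at 1.46 and 1.67 FPKM and xrcc3 at 1.79 and 2.13 FPKM. XRCC2 was listed at 0 in both.

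The MRN complex, which recognises broken ends, had 3 of 3 subunits slightly higher: mre11a at 3.05 and 3.51 FPKM (a shared locus), rad50 at 2.19 and 3.58 FPKM and nbn at 5.99 and 6.26 FPKM. The recombination mediator gene brca2 was at 0.667 and 1.01 FPKM. The translocase genes were rad54l, at 2.19 and 2.77 FPKM, and rad54b, at 1.15 and 0.985 FPKM at a shared locus. The helicase pair mcm8, at 0.928 and 0.578 FPKM, and mcm9, at 1.13 and 0.695 FPKM, was lower in the mutant in both cases, near the floor.

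Fanconi anaemia genes were the least abundant pathway, with a median wild-type level of 1.43 FPKM over the 9 rows that entered. Their median difference was 0.07, with 0 called in either direction, beside 13.2% of all genes. The monoubiquitinated pair at the centre of the pathway was fancd2, at 2.61 and 2.88 FPKM, and fanci, at 1.37 and 1.50 FPKM, both at shared loci. Of the core complex, fancl, the ubiquitin ligase subunit, was at 0.862 and 1.99 FPKM at a locus shared with vrk2, and fancg was at 1.43 and 2.83 FPKM. These had the highest differences, 0.68 and 0.65. FANCA, at 1.83 and 1.35 FPKM, had the lowest. The fancl row entered through the mutant library alone, which favours a value above 0, and fancb through the wild-type library alone. The remaining genes fancb, fancc, fance and fancf had differences between -0.19 and 0.12.

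The damage checkpoint had a median of 0.26, with 7 of 9 rows above 0, against 49% of all genes. Of these 7, atr and atm (ENSDARG00000063465) were under 1 FPKM in the wild type. They entered through the mutant library alone, which favours values above 0. The pathway median was 0.12 at pseudocount 5 and 0.15 with 1 row a symbol. The apical kinase gene atr (ENSDARG00000079625, chromosome 2, 16204868 to 16270087) was at 0.819 and 2.90 FPKM, 3.54-fold higher between low values. Its sister kinase has 2 rows on chromosome 15 that went in opposite directions: atm (ENSDARG00000002385) had 2.17 and 1.53 FPKM, with its locus shared, and atm (ENSDARG00000063465) was at 0.924 and 2.33 FPKM. No direction is given for atm here. The effector kinases were chek1, with 2.29 and 2.95 FPKM, and chek2, with 1.95 and 3.14 FPKM and a shared locus. The checkpoint clamp gene rad1 was at 4.54 and 7.39 FPKM, with its partner rad9a at 3.19 and 2.67 FPKM, rad9b listed at 0 and at 0.283 FPKM, and the loader rad17 at 4.07 and 4.15 FPKM. The break-site adaptor TP53BP1 was at 9.28 and 9.57 FPKM.

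**Figure D3:**
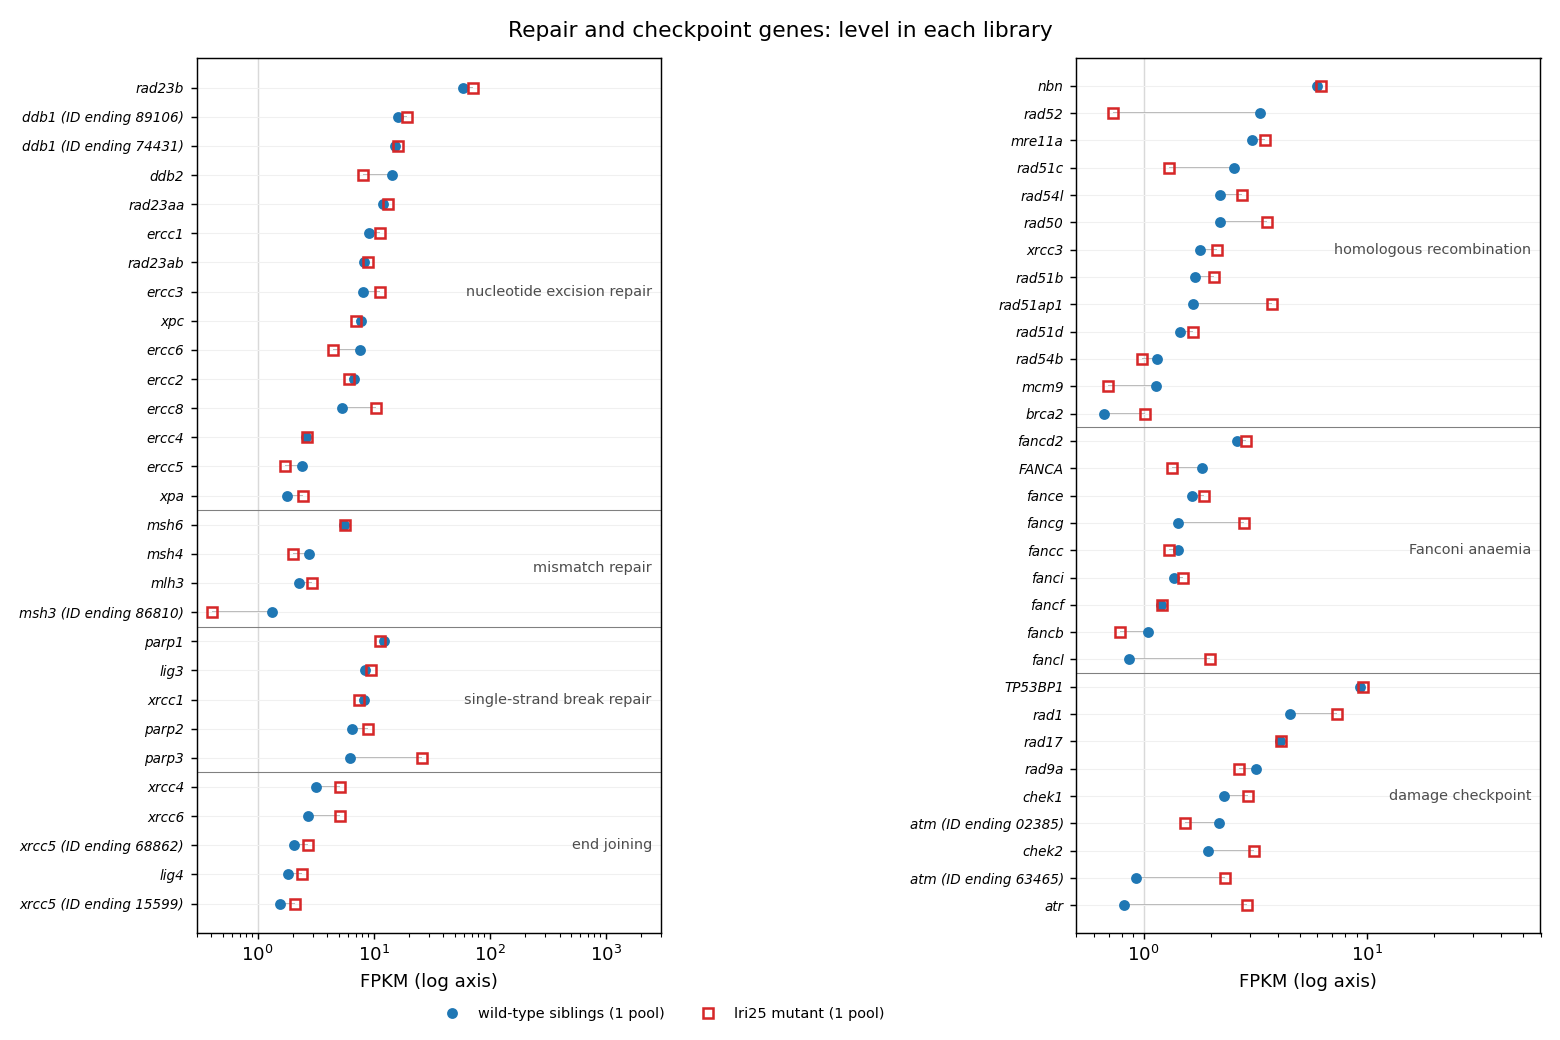
FPKM of the repair and checkpoint genes reported here (log axis) in the wild-type pool (filled circles) and the mutant pool (open squares), 1 library each, grouped by pathway; rows sharing a symbol are told apart by the end of their identifier. The widest separations are those of parp3 and atr, higher in the mutant, and rad52 and msh3, lower in the mutant.

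Compared with replication, whose median difference was 0.09, the pathway medians lay close by. Replication minus nucleotide excision repair was -0.01, minus homologous recombination -0.05, minus single-strand break repair -0.06, and minus Fanconi anaemia 0.02. The gap was -0.17 for the damage checkpoint, -0.20 for end joining and 0.24 for mismatch repair. Each of these gaps is smaller than the spread between genes of the replication group, whose quartiles are 0.33 apart, and the 3 wider ones belong to pathways of 5 to 9 genes; with a floor of 5 FPKM the gap was -0.24 for mismatch repair, -0.58 for end joining and 0.25 for homologous recombination, and with 1 row a symbol it was -0.0543 for the checkpoint. All 63 repair and checkpoint rows together had a median of 0.12, with 43 above 0, or 68.3%, against 49% of all genes. Of these rows, atr, atm (ENSDARG00000063465), brca2 and fancl entered through the mutant library alone, which favours values above 0. The rows msh3 (ENSDARG00000086810), fancb, mcm9, rad52 and rad54b entered through the wild-type library alone, which favours values below 0. The pathways differed more in level than in difference: the median wild-type level was 8.05 FPKM for replication and 2.62 FPKM for all repair and checkpoint rows together. It was 8.11 FPKM for nucleotide excision repair and 8.33 FPKM for single-strand break repair. The other repair and checkpoint pathways had medians between 1.43 and 2.91 FPKM.

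Of the 24 rows that share the name pattern with no place in these pathways, 21 entered, with a median of -0.02. Of the 21, 2 were called higher and 0 lower, beside 6.08% and 7.12% of all genes. Of the 24, 12 belong to the PARP family beyond the break-activated PARP1, PARP2 and PARP3. PARP4, the vault-associated member, was at 2.97 and 7.69 FPKM, and PARP12 (2 of 2), at a locus shared with SYN3, at 0.945 and 3.11 FPKM. The PARP12 (2 of 2) row entered through the mutant library alone. PARP12 is known in mammals as an interferon-stimulated gene; the other rows of that name were parp12a, at 2.36 and 4.32 FPKM at a shared locus, and parp12b, at 5.68 and 5.03 FPKM. In the interferon list, 13 of 15 genes entering were above 0, against 49% of all genes, with a median of 0.66. In it, stat1b was 5.71-fold higher. However, isg15, stat1b, psmb9a, ifih1, tap1 and eif2ak2 were under 1 FPKM in the wild type. They entered through the mutant library alone, which favours values above 0. The paralog stat1a was at 15.0 and 18.6 FPKM, and 9 further rows, among them mxa, were under the floor. The genes stat1a, mxa, ifih1, tap1 and eif2ak2 were named after their values were seen. The part of the interferon list in the PARP12 values was not tested. The PARP6 rows were lower, with PARP6 (3 of 4) at 7.40 and 4.27 FPKM the lowest of the name-matched rows and parp6a at 7.91 and 5.10 FPKM, whereas PARP9 was listed at 0 in both.

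Cohesin genes, which hold sister chromatids together and enter through the rad21 name, were even or lower: rad21a (ENSDARG00000086515, a shared locus) at 48.7 and 48.2 FPKM, rad21a (ENSDARG00000006092) at 20.3 and 15.2 FPKM and rad21b at 9.71 and 9.27 FPKM. The PCNA ubiquitin ligase gene rad18 was at 6.55 and 4.42 FPKM. The rows xrcc6bp1, at 7.14 and 11.6 FPKM, and rad54l2, at 11.6 and 9.64 FPKM, were set apart because neither encodes a repair factor of the name they carry. Of the 15 rows under the floor, 6 were listed at 0 in both libraries, and 5 were listed at 0 in the wild type alone, including mcm3l with 0.346 FPKM and rad21l1 with 0.315 FPKM in mutants. An exact 0 in such a table can be a failed estimate, and no fold is given for these rows.

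The differences were also read against level, since low values vary more. In the class peaking at 1 to 5 FPKM in either library, 3 of 54 rows found by the rule were past 2-fold (5.56%). Among all 7498 genes at that level the share was 17.9%. Between 5 and 20 FPKM the counts were 2 of 48 (4.17%) beside 10.9% of 8039, and between 20 and 100 FPKM 1 of 10 beside 9.38% of 3710. For the rows placed in the pathways these counts were 2 of 46, 1 of 38 and 1 of 7. In the lowest class, the gap between the quartiles of the log2 difference was 0.42 for the rows found by the rule and 0.83 for all genes. In the next it was 0.47 and 0.67. Transcript lengths, which set how many fragments stand behind an FPKM, were not used here.

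**Figure D4:**
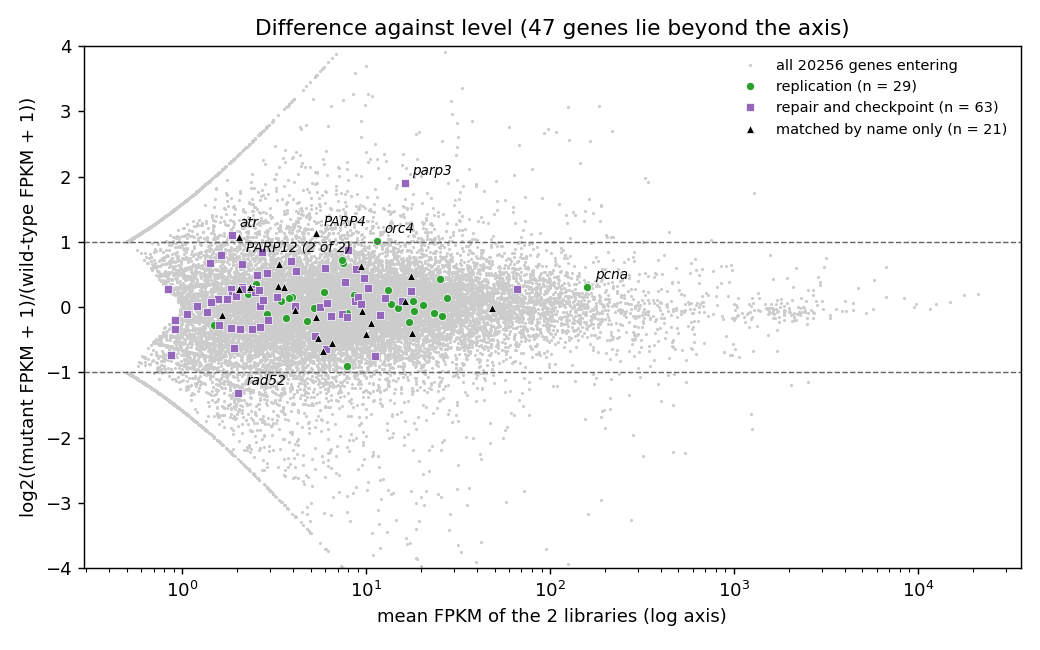
Log2 difference between the libraries against the mean FPKM of both (log axis) for all 20256 genes entering (grey) and for replication, repair and checkpoint, and name-matched genes (coloured symbols); dashed lines mark 2-fold, and 47 genes lie beyond the axis limits. The coloured symbols lie within the dashed lines apart from the 6 labelled genes past 2-fold, and pcna is labelled as the most abundant.

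The p and q per gene in the authors' deposited table set library against library, with no replicate of either genotype. It marks 68 of the 128 rows as tested, 53.1%, against 43.3% of all rows; the others carry the status NOTEST. In the authors' deposited table, parp3 had a p of 0.00205 and a q of 0.225, and PARP4 a p of 0.0173 and a q of 0.802. These were the 2 of 68 tested rows, or 2.94%, with a deposited p under 0.05, beside 4.37% of all 14613 tested genes. Of the 68, 0 were marked significant in the authors' deposited table, beside 68 genes or 0.465% of those tested. The origin gene orc4 had a p of 0.0944 in the authors' deposited table, and atr and rad52 were not tested there.

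Genes of the same pathways whose names fall outside the rule also lay mostly within 2-fold. In 9 lists of such genes, 140 entered, with 4 called higher, 2 called lower, 78 above 0 and a median of 0.06. Among all genes entering, 6.08% were called higher, 7.12% lower and 49% were above 0. Of the list genes called, PARG and exo1 entered through the mutant library alone, and wdhd1 and bard1 through the wild-type library alone. The replication, Fanconi and checkpoint lists had medians of -0.03, -0.09 and 0.07, where the rows found by the rule had 0.09, 0.07 and 0.26. Other replication genes, among them polymerases, licensing factors and nucleotide synthesis enzymes, had a median of -0.03 over 49 rows with 0 called higher. The highest was the clamp loader gene chtf8, at 3.10 and 6.57 FPKM. The lowest and only one called lower was a row of the polymerase alpha anchor wdhd1, with 2.06 FPKM in wild-type larvae and listed at 0 in mutants, at a shared locus. The other wdhd1 row, also at a shared locus and named after its value was seen, went the other way, at 2.76 and 3.36 FPKM. The mitosis and proliferation list had a median of 0.08 with 0 of 39 called, from ccnb2 at 4.11 and 1.91 FPKM to the spindle checkpoint kinase gene ttk at 2.21 and 5.22 FPKM.

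Among repair genes outside the rule, PARG, which removes the poly(ADP-ribose) chains that PARP enzymes build, was listed at 0 in wild-type larvae, with 9.41 FPKM in mutants. In the same list of base excision and single-strand break repair, with a median of 0.19 over 19 rows, the glycosylase gene nthl1 was at 1.38 and 4.27 FPKM at a shared locus and apex2 was lowest, at 2.28 and 0.871 FPKM. Other excision repair genes had a median of 0.18 over 16 rows with 13 above 0, against 49% of all genes. The lowest was cetn2 at 19.2 and 11.7 FPKM, and the highest the ligase subunit rbx1 at 80.0 and 117 FPKM. In the recombination list, with a median of 0.20 over 18 rows, the BRCA1 partner bard1 was 5.43-fold lower, at 2.61 and 0.481 FPKM, and the resolvase GEN1 was highest, at 5.94 and 10.5 FPKM. The exonuclease exo1 had 0.868 and 2.95 FPKM with a shared locus, above pms2 at 1.96 and 1.63 FPKM in the mismatch list of 3.

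The end joining, Fanconi and translesion lists, with 4, 8 and 11 rows entering, held no call, beside 13.2% of all genes. The excision repair list, with 16 rows, held none either. Other end joining genes had a median of 0.33 over 4 rows with 4 above 0, against 49% of all genes. The lowest was PRKDC at 0.970 and 1.06 FPKM, which entered through the mutant library alone. The highest was the nuclease gene dclre1c at 2.96 and 5.68 FPKM at a shared locus. Other Fanconi genes had a median of -0.09 over 8 rows, from slx4 at 3.26 and 2.27 FPKM at a shared locus to ube2t at 6.30 and 8.65 FPKM. Translesion genes had a median of -0.04 over 11 rows, from MAD2L2 (2 of 2) at 5.26 and 2.91 FPKM to shprh at 1.06 and 2.06 FPKM.

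The checkpoint list outside the rule had a median of 0.07 over 12 rows, with 8 above 0, against 49% of all genes. The lowest member of this list was the regulator mdm4, at 53.3 and 39.4 FPKM.

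**Figure D5:**
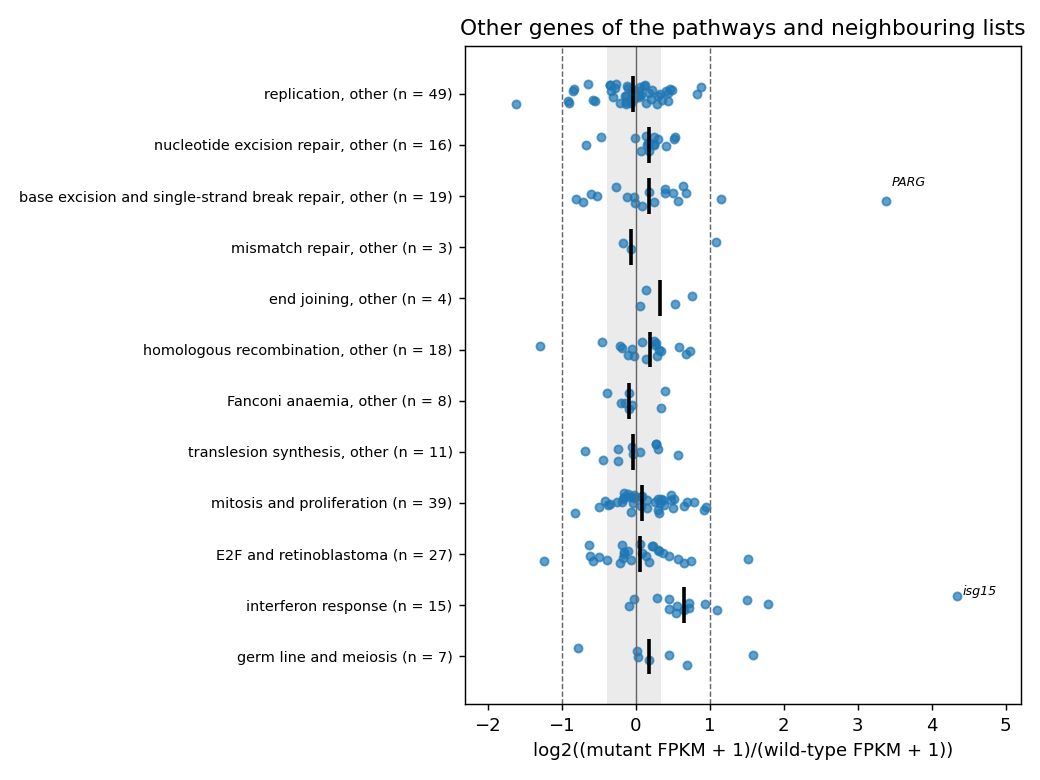
Log2 difference between the libraries for genes outside the naming rule, by list; each point is a gene, black bars are medians, dashed lines mark 2-fold and the grey band holds the middle 50% of all genes entering. Medians of the pathway lists drawn lie between -0.09 and 0.33. The interferon list has a median of 0.66, over genes that in part entered through the mutant library alone.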

How the data were processed

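Total RNA from 1 pool of 20 whole larvae per genotype was extracted with a silica column kit and sequenced on standard Illumina libraries, as the labels' protocols state. Zv9, CASAVA and Bowtie appear without versions in the submitters' processing notes, and which program computed the expression values is not stated there. The authors deposited 1 table with a value per gene and library, read as FPKM from the values and the layout because the file headers do not name the unit, together with a p-value and a q-value that the authors computed per gene. Identifiers came from the gene identifier column; 106 of the 128 were found in a gene name table and 99 carried the same symbol there, ignoring case and suffix. Positions were written 1-based, since 19 of 19 mitochondrial rows started 1 base before the reference start. A pseudocount of 1 FPKM, a floor of 1 FPKM and a 2-fold limit were used, in Python 3.11.15 with pandas 2.3.3, and the calling step was tested on simulated data. Genes at a locus shared with another row (33 of 128) may have divided reads, and the libraries are not stated to keep strand. The depth of each library is unknown and no error is attached to single values. Named genes were every gene past 2-fold, the extremes and the most abundant of each pathway, a fixed set of core genes, and genes listed at 0. The lists hold 318 entries, of which 297 matched. The genes and lists were chosen with earlier results of these data known, and xrcc6bp1 and rad54l2 were moved out of the repair pathways after the values were seen. Sequences of these genes were not used here. Some genes matched by the rule or the lists are not reported here singly, though they stay in the counts and medians.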

Additional observations from a re-analysis of the deposited data

How the results depend on the processing

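Scaling to the upper quartile changed the mutant values by a factor of 0.999 and left the counts of these genes past 2-fold as they were. Under this scaling, 0 of the 113 genes changed sign, but a factor this close to 1 could hardly change any, so it does not check sign. A pseudocount, a floor or the removal of shared loci cannot change the sign of a gene's difference, so these settings do not check it. The counts of genes past 2-fold rest on low values: 8 were higher and 3 lower at pseudocount 0.1, 1 higher (parp3) and 0 lower at pseudocount 5, 3 higher and 0 lower with a floor of 5 FPKM, and 0 lower without genes at a shared locus.

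Medians of small pathways moved by more than 0.1. The mismatch repair median was 0.14 with no floor, 0.30 with a floor of 5 FPKM and 0.27 without shared loci, so its sign is not settled, and replication minus mismatch repair was -0.0436, -0.24 and -0.14 there and 0.12 at pseudocount 5. The end joining median was 0.42 at pseudocount 0.1, 0.13 at pseudocount 5, 0.64 with a floor of 5 FPKM, 0.42 with xrcc6bp1 and rad54l2 counted as repair genes and 0.42 with 1 row a symbol, and replication minus end joining was -0.32, -0.0813, -0.58, -0.33 and -0.32. The homologous recombination median was -0.20 with a floor of 5 FPKM, and replication minus it 0.25. The checkpoint median was 0.12 at pseudocount 5 and 0.15 with 1 row a symbol, where replication minus it was -0.0543. Replication minus Fanconi anaemia was 0.12 without shared loci, and the name-matched rows had a median of -0.15 with a floor of 5 FPKM. In the 9 lists of other pathway genes, the count higher was 2 at pseudocount 5, with a floor of 5 FPKM and without shared loci; the count lower was 6 at pseudocount 0.1, 0 at pseudocount 5 and with a floor of 5 FPKM, and 1 without shared loci and without genes listed at 0. The cause was not tested. The alternatives on xrcc6bp1 and rad54l2 and on 1 row a symbol were chosen after seeing the data. No paired analysis was possible because each genotype had 1 library, and for the same reason no replicate could be left out.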

Other observations

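Regulators of entry into S phase lay on both sides. In a list of E2F, retinoblastoma and cyclin genes, 14 of 27 were above 0 with a median of 0.06. The retinoblastoma-like gene rbl2, a repressor of E2F targets in resting cells, was at 2.83 and 9.93 FPKM, 3.51-fold higher in the mutant, and rb1 was at 6.15 and 9.58 FPKM at a shared locus. Their relative rbl1 was lower, at 6.70 and 4.15 FPKM. The inhibitor cdkn1c was 2.66-fold lower, at 12.2 and 4.57 FPKM, whereas its other row, CDKN1C (2 of 2), was nearly even at 2.11 and 2.25 FPKM. The rows rb1, rbl1 and CDKN1C (2 of 2) were named after their values were seen.

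Germ line genes were near the floor, with 7 of 19 rows entering and a median of 0.18. Among the rows entering, nanos3, piwil2 and tdrd1 did so through the mutant library alone, which favours values above 0, and dazl through the wild-type library alone. The germ cell marker vasa was at 2.92 and 3.45 FPKM, dazl at 1.62 and 0.521 FPKM, and nanos3, listed at 0 in wild-type larvae, had 2.01 FPKM in mutants. The genes vasa, piwil2 and tdrd1 were also named after their values were seen. In the interferon list, isg15 and psmb9a, listed at 0 in wild-type larvae, had 19.3 and 1.14 FPKM in mutants, b2m was at 2.99 and 12.7 FPKM, and mxe had the lowest difference, at 1.35 and 1.20 FPKM.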
